A study of Rattus norvegicus with 138 samples.

Results

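RNA from 2 regions of the rat medulla was compared within the same animals, the nucleus tractus solitarius (NTS) and the caudal ventrolateral medulla (CVLM) of normotensive Wistar-Kyoto (WKY) rats. The members were the NTS and CVLM libraries of every WKY rat in the series, paired by the strain, age and animal number in the sample names, with all ages together. They comprised 36 of the 138 libraries, 1 per region from each of 18 of the 46 rats. All WKY rats were females with no treatment stated, with 5 rats at 8 wk of age, 4 at 10 wk and 3 each at 12, 16 and 24 wk. Tissue was punched on both sides of the brainstem, and the punches of a region from 1 rat were a single sample. The same regions of 28 spontaneously hypertensive rats (SHRs, 5, 5, 6, 6 and 6 rats at the same ages) and the rostral ventrolateral medulla (RVLM) of the 18 WKY rats were used only to place the results.

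The NTS lies in the dorsomedial medulla and is the first central station for baroreceptor, chemoreceptor, cardiopulmonary and gastric afferents of the vagus and glossopharyngeal nerves. Its glutamatergic neurons excite inhibitory neurons of the CVLM, which in turn restrain the sympathoexcitatory neurons of the RVLM, and this chain is the central arm of the baroreflex. The noradrenergic A2 group lies in and near the NTS, and the noradrenergic A1 group lies in the caudal ventrolateral medulla, next to adrenergic C1 neurons. The NTS also borders the fourth ventricle, the area postrema and the dorsal motor nucleus of the vagus, whereas the ventrolateral medulla holds the lateral reticular nucleus and passing fiber tracts.

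Library totals ran from 6799609 to 17755961 counts in the NTS and from 7897447 to 16320320 in the CVLM. By the genes tested, all 36 libraries had their nearest other library within their own labelled region. The CVLM library of 10 wk replicate 4 stood apart in serotonergic and catecholaminergic genes, and the NTS libraries of 5 rats (8 wk replicates 2 and 5, 10 wk replicate 4, 12 wk replicates 2 and 3) held Ttr, the choroid plexus transporter of thyroid hormone, above 50 CPM (counts scaled to the effective library size). Where leaving these rats out ended the call of a gene named in the text, this is given beside the gene.

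Of 32883 genes, 13718 passed the filter on low values and were tested with each rat as its own control. Calls required a 2-fold change in either direction together with an adjusted p no larger than 0.01. The 812 called genes (5.92% of those tested) comprised 610 higher in the NTS (4.45%) and 202 lower (1.47%). The difference had the same direction in 18 of 18 rats for 370 of the 610 and 142 of the 202. For 146 and 63 of them the 18 NTS levels and the 18 CVLM levels did not overlap at all, against 2.25% of all tested genes with separated levels in either direction. Without the fold limit, 5610 genes (40.9%) had an adjusted p of at most 0.01. The median log2 fold change over all tested genes was 0.00, and the median standard error was 0.08. In the text that follows, levels are CPM after TMM scaling, given as the lowest, median and highest of 18 rats, and log2 fold changes are NTS against CVLM with their standard error (SE). RVLM levels, where given, were scaled in a separate TMM fit of the NTS, CVLM and RVLM libraries together. In bulk punches, fewer cells of a type and less RNA per cell cannot be told apart.

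Many peptide genes were higher in the NTS. Of 61 neuropeptide and granule genes in the tables, 40 were tested, 14 were higher in the NTS, 3 were lower, and the list's median log2 fold change was 0.43. Pdyn, which encodes the dynorphin precursor, had levels of 68.2, 90.6 and 128 CPM in the NTS and 4.96, 10.2 and 31.9 CPM in the CVLM. Its lowest NTS level was above its highest CVLM level, and the log2 fold change was 3.11 ± 0.15 (SE, adjusted p = 1.9e-12). Grp, gastrin-releasing peptide, was at 17.7, 28.3 and 41.0 CPM against 1.41, 3.54 and 7.04 CPM, again without overlap (2.98 ± 0.13, adjusted p = 5.5e-15). Npff, the neuropeptide FF precursor, was at 7.41, 21.7 and 36.4 CPM against 0.201, 1.95 and 5.23 CPM (3.16 ± 0.28). Levels of Nmu (neuromedin U), Nts (neurotensin) and Adcyap1 (PACAP, a peptide transmitter of autonomic pathways) were also separated between the regions, with log2 fold changes of 2.69, 1.86 and 1.76. Cck, cholecystokinin, was higher in 18 of 18 rats (2.78 ± 0.19), although its highest CVLM level, 12.9 CPM, reached its lowest NTS level, 12.7 CPM.

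Gcg, whose product in the hindbrain is processed to glucagon-like peptide-1, marks a small group of caudal NTS neurons. It was at 0.846, 53.2 and 117 CPM in the NTS and at 0.105, 0.738 and 5.80 CPM in the CVLM, and was higher in the NTS in 17 of 18 rats (4.86 ± 0.47, adjusted p = 1.1e-07). The exception was 12 wk replicate 1, with 0.846 CPM in the NTS and 1.64 CPM in the CVLM. Prlh, prolactin-releasing hormone, which noradrenergic A2 neurons make, was at 0, 3.77 and 7.82 CPM in the NTS and did not exceed 0.281 CPM in the CVLM (5.49 ± 0.44). Hcrt (4.32) and Ucn (4.23), the genes of orexin and urocortin, were called at low levels, with NTS medians of 4.42 and 1.17 CPM. Ecel1, an endopeptidase of the list, Scgn, a calcium sensor of secretory cells, and Pomc had log2 fold changes of 1.29, 2.6 and 1.23. Several peptide genes at higher CPM were not called. Penk, the enkephalin precursor, was at medians of 629 CPM in the NTS and 746 CPM in the CVLM (-0.24, adjusted p = 0.024). Sst, Gal and Tac1 had log2 fold changes of 0.16, 0.25 and 0.24 with adjusted p values of 0.38, 0.455 and 0.155.

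The peptide genes lower in the NTS were Crh, Tac3 and Vip. Crh, corticotropin-releasing hormone, was at 0.475, 2.96 and 5.70 CPM in the NTS and 7.27, 18.8 and 66.4 CPM in the CVLM, without overlap (-2.64 ± 0.27, adjusted p = 8.4e-08). Crhbp, which encodes the protein that binds and sequesters this hormone, was lower in the NTS as well, at 0.788, 2.61 and 4.07 CPM against 4.60, 32.0 and 74.5 CPM (-3.67). The receptor gene Crhr1 was lower in the NTS (-1.37), whereas Crhr2 was higher (1.38). Tac3, the neurokinin B precursor, was at medians of 1.25 and 5.17 CPM (-2.15), and its receptor gene Tacr3 took the other direction, at 23.1, 43.5 and 59.9 CPM in the NTS and 3.95, 7.26 and 11 CPM in the CVLM (2.51 ± 0.15). The call for Vip rested on low counts and was lost when any of 12 rats was left out in turn. It was also lost without the 5 rats with high Ttr.

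**Figure D1:**
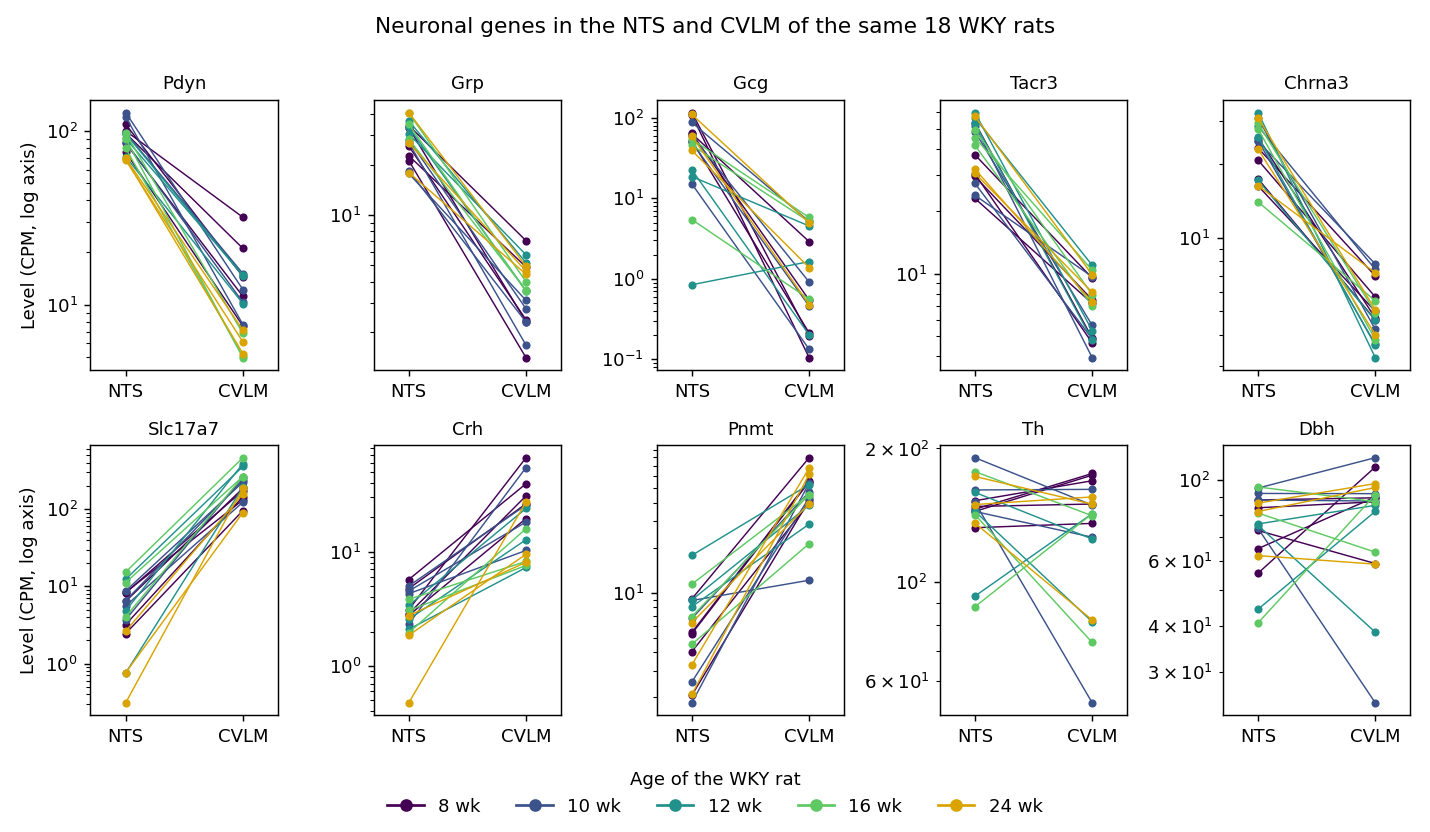
Levels of 10 neuronal genes in the NTS and CVLM of the same WKY rats (y axis, CPM on a log scale that differs between panels). Each line joins the 2 libraries of 1 rat, colored by age. Pdyn, Grp, Tacr3 and Chrna3 fall from NTS to CVLM in 18 of 18 rats and Gcg in 17, Slc17a7, Crh and Pnmt take the opposite course in 18 of 18, and the lines of Th and Dbh cross.

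Receptors for peptides and hormones shifted toward the NTS. Of 67 in the tables, 54 were tested, 17 were higher in the NTS and 1, Crhr1, was lower, with a list median of 0.32. The 17 included receptors or co-receptors of circulating and gut signals. Gfral, the receptor of GDF15, was at 3.31, 6.63 and 12.1 CPM in the NTS and 0.535, 1.10 and 2.51 CPM in the CVLM (2.42 ± 0.17), without overlap. Cckar, a cholecystokinin receptor, was separated likewise at lower levels (2.51 ± 0.22). Calcr (1.41) and Ramp3 (1.66), which together form an amylin receptor, were higher in 18 of 18 rats. Npy4r, a receptor of pancreatic polypeptide, was at 1.59, 3.88 and 7.49 CPM against 0, 0.229 and 0.922 CPM (3.58 ± 0.27). Prlhr, the receptor for prolactin-releasing hormone, had a log2 fold change of 2.92. Agtr1a, the angiotensin II type 1a receptor, a pressor receptor of the NTS and area postrema, was at 6.08, 11.1 and 18 CPM in the NTS and 2.04, 4.11 and 6.6 CPM in the CVLM, and was higher in 17 of 18 rats (1.48 ± 0.14, adjusted p = 4.6e-09). The somatostatin receptor genes Sstr1 (1.52) and Sstr4 (1.93), Nmur2 (1.91), Oprm1, the mu opioid receptor (1.36), Npy1r (1.13), Rxfp1 (1.53), Rxfp3 (1.40) and Aplnr, the apelin receptor (1.13), were also called, and with Crhr2 and Tacr3 these make up the 17. Aplnr missed the fold limit without the 5 rats with high Ttr (0.99), and 16 of the list were then higher. Glp1r, the receptor for the Gcg product, went slightly the other way, at medians of 3.78 CPM in the NTS and 4.71 CPM in the CVLM (-0.48, adjusted p = 0.0089). None of the 18 adrenergic, dopamine and serotonin receptor genes tested was called, and the list's median was -0.01. At an adjusted p within 0.01 and without a fold limit, 3 were higher and 5 lower, among them Drd5 (0.88) and Adra1b (-0.83). With scaling by total counts 1 of the 18 was called and the median was 0.15.

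Among genes of catecholamine synthesis and transport, Pnmt separated the regions and Th and Dbh were not called. Th, tyrosine hydroxylase, was at 88.1, 147 and 191 CPM in the NTS and 53.6, 143 and 176 CPM in the CVLM, higher in the NTS in 9 of 18 rats (0.18 ± 0.12, adjusted p = 0.23). Dbh, which makes noradrenaline, was at 40.7, 78.5 and 95.6 CPM against 24.7, 87.3 and 115 CPM (-0.06 ± 0.14, adjusted p = 0.75). The levels of both overlapped widely between the regions. Pnmt, which converts noradrenaline to adrenaline, was at 1.84, 5.87 and 17.8 CPM in the NTS and 12.1, 45.2 and 79.7 CPM in the CVLM, and was lower in the NTS in 18 of 18 rats (-2.92 ± 0.28, adjusted p = 7.9e-08). Its levels overlapped through the CVLM library of 10 wk replicate 4, the lowest at 12.1 CPM, and without that rat the log2 fold change was -3.07. Ddc, the decarboxylase shared with serotonin synthesis, was higher in 18 of 18 rats but just short of the fold limit (0.98 ± 0.07). Of 13 genes tested in the list, Pnmt was the 1 called (7.69%, against 5.92% of all tested genes), and the list median was -0.02. At an adjusted p within 0.01 and without a fold limit, 4 were higher and 3 lower. The summed level of the list was lower in the NTS in 18 of 18 rats, at medians of 2165 and 2863 CPM. The vesicular transporter gene Slc18a2 (-0.24) and the noradrenaline transporter gene Slc6a2 (0.28) did not pass the test at 0.01.

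Tph2, the neuronal enzyme of serotonin synthesis, was at 12.5, 27.6 and 40.4 CPM in the NTS and 2.95, 5.27 and 123 CPM in the CVLM. The highest CVLM level came from 10 wk replicate 4, and the other 17 CVLM libraries did not exceed 13.3 CPM. The log2 fold change was 1.93 ± 0.29 with that rat and 2.13 without it. The serotonin transporter gene Slc6a4 did not exceed 0.283 CPM in any NTS library and was at 0, 0.298 and 30.4 CPM in the CVLM, the highest again in that rat. It was called lower in the NTS with that rat (-3.34) and without it (-2.21), but not without the 5 rats with high Ttr, of which that rat is 1. Of 4 tested genes of the serotonergic list 2 were higher and 1 lower. Fev, the serotonergic transcription factor, did not exceed 0.317 CPM in the NTS and was not tested. Slc6a4 and Fev were thus at or near 0 in the NTS libraries that held Tph2. Slc22a3, a low-affinity monoamine transporter, had medians of 8.69 and 1.70 CPM (2.23 ± 0.27).

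Genes of cholinergic neurons, which the neighboring dorsal motor nucleus of the vagus holds, were higher in the NTS. Chat, choline acetyltransferase, was at 24.0, 69.4 and 125 CPM in the NTS and 7.23, 18.8 and 36.9 CPM in the CVLM, with a log2 fold change of 1.87 ± 0.25. Slc18a3, the vesicular acetylcholine transporter, was at 26.4, 97.9 and 193 CPM against 8.64, 22.6 and 47.3 CPM (1.96 ± 0.28). Both were higher in 17 of 18 rats, and in 10 wk replicate 2 they were lower in the NTS (25.98 CPM against 36.9 CPM for Chat). Slc5a7 (1.51), Prph, the peripherin of peripherally projecting neurons (1.34), and Isl1, a motor neuron transcription factor (1.26), were called with them, and 5 of the 11 genes tested in the list were higher. Uts2b, a urotensin precursor of motor neurons, was lower (-4.39), with an NTS median of 0 CPM. Chat, Slc18a3, Slc5a7, Prph and Isl1 all kept their direction but were not called among the 7 rats whose sample names end in 2. Chat had a log2 fold change of 0.99 among them, against 2.45 among the 11 whose names end in 1. What this number stands for was not given in the sources used here. The 7 rats were 3 of the 5 at 8 wk and all 4 at 10 wk, and no rat of 12, 16 or 24 wk was among them, so the number and age are confounded in part.

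Nicotinic receptor subunits separated the regions in both directions. Chrna3 was at 14.0, 24.9 and 32.6 CPM in the NTS and 3.23, 4.82 and 7.81 CPM in the CVLM (2.21 ± 0.13, adjusted p = 1.8e-12), and Chrnb4 at 3.67, 6.96 and 11.1 CPM against 0.234, 0.967 and 1.87 CPM (2.78 ± 0.21). With Chrna5 (1.25), these subunits are encoded in 1 gene cluster and assemble into ganglionic-type nicotinic receptors. Chrna6, a subunit of catecholaminergic neurons, went the other way, at most 0.569 CPM in the NTS and 0.870, 2.07 and 3.56 CPM in the CVLM (-4.06). The remaining 6 of the 10 acetylcholine receptor genes tested were not called.

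Transcription factors of hindbrain patterning distinguished the regions. Of 87 in the tables, 49 were tested, 14 were higher in the NTS and 7 lower, with a list median of 0.39. Nr4a2, an orphan nuclear receptor, was at 7.13, 11 and 16.7 CPM in the NTS and 0.487, 1.69 and 3.59 CPM in the CVLM (2.59 ± 0.17). Lhx2 (2.29), Pou4f2 (1.93), Neurod1 (1.85), Nr2f2 (1.63), Ebf3 (1.51), Zic4 (1.42) and Ebf1 (1.11) were each higher in 18 of 18 rats. Genes lower in the NTS included the partners Gata3 (-3.65), Gata2 (-1.29) and Tal1 (-1.29), which act together in specifying inhibitory interneurons of the hindbrain and spinal cord. Gata3 was at most 1.28 CPM in the NTS and at least 2.31 CPM in the CVLM. Neurod6, a factor of glutamatergic neurons, was at 1.71, 3.58 and 7.79 CPM in the NTS and 17.9, 31.7 and 42.3 CPM in the CVLM (-2.94 ± 0.16), and Foxp2 was also lower (-1.61).

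Hox genes, which are expressed by position along the body axis, leaned to the NTS. Of 26 in the tables, 15 were tested with a median log2 fold change of 0.59, 3 were higher in the NTS and none was lower. Hoxb7 was at 0.317, 4.41 and 10.4 CPM in the NTS and did not exceed 0.328 CPM in the CVLM (5.86 ± 0.31, 18 of 18 rats). Hoxb6 was at 1.97, 6.65 and 11.4 CPM against 0.166, 1.08 and 4.87 CPM (2.10 ± 0.29). Hoxa5 was called (2.72) but was at 0 CPM in both regions of the same 5 rats. Hoxb5 was higher in the NTS in 18 of 18 rats without reaching the fold limit (71.9, 99.7 and 170 CPM against 26.7, 62.4 and 93.1 CPM, 0.86 ± 0.10), and in the RVLM it was at a median of 0.485 CPM.

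Vesicular glutamate transporters differed between the regions in Slc17a7 and little in Slc17a6. Slc17a7 (ENSRNOG00000020650), the vesicular glutamate transporter VGLUT1, was at 0.309, 5.21 and 15.3 CPM in the NTS and 90.6, 190 and 465 CPM in the CVLM (-5.32 ± 0.25, adjusted p = 5.1e-12). Its lowest CVLM level was above its highest NTS level. Slc17a6, which encodes VGLUT2, the transporter of most brainstem glutamatergic neurons, differed little, at medians of 305 and 284 CPM (0.26 ± 0.06, adjusted p = 0.00034). Of 39 glutamate genes tested, 3 were higher, namely the AMPA receptor auxiliary subunit gene Cacng5 (1.73) and the synaptic organizers Cbln1 (1.12) and Cbln2 (1.13), and 2 were lower, Slc17a7 and the metabotropic receptor gene Grm8 (-1.06). Of 30 GABA and glycine genes, Gabra4 (1.54) and Gabrq (1.06) were higher and none was lower, with a list median of 0.36. The called share of this list was 6.67%, near the 5.92% of all tested genes. At an adjusted p within 0.01 and without a fold limit, 16 of the 30 were higher and 3 lower. Gabrq missed the fold limit without the 5 rats with high Ttr (0.97), without 10 wk replicate 4 alone (0.97) and without 24 wk replicate 3 alone (0.98). Gad1, which makes GABA, was at medians of 314 and 198 CPM (0.65 ± 0.09), and Slc6a5, the glycine transporter of glycinergic terminals, leaned to the CVLM at 79.4 and 181 CPM (-0.96 ± 0.14). Both had adjusted p values under 0.01 and lay within the fold limit.

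How many ion channel genes were called in each direction depended on the scaling. Among 25 sodium and calcium channel genes tested, 7 were higher in the NTS and 1 was lower. Scn9a, a voltage-gated sodium channel known from nociceptors, was at 8.19, 15.5 and 30.1 CPM in the NTS and 1.75, 3.51 and 5.24 CPM in the CVLM (2.28), and Scn3a (1.3), Scn3b (1.03), the low-threshold calcium channels Cacna1g (1.51) and Cacna1h (1.29), Cacna2d1 (1.23) and Cacnb3 (1.27) were higher as well. The lower one was Scn4b (-1.15), a subunit of fast-firing neurons. Scn3b was no longer called without 12 wk replicate 3 alone. Among 61 potassium and HCN channel genes, 5 were higher and 4 lower. The levels of Kcna5 (3.27) and Kcnf1 (1.95) did not overlap and were higher in the NTS, and Kcna1 (-1.13), Kcna2 (-1.03) and Kcns3 (-1.71) were lower in 18 of 18 rats. Kcna1 and Kcna2 form the axonal channels next to nodes of Ranvier. Under scaling by total counts, 8 potassium and HCN channel genes were higher and 1 lower, and 9 sodium and calcium channel genes were higher and none lower. Kcna1, Kcna2 and Scn4b then kept their direction but no longer reached the fold limit. Kcna2 also missed it without the 5 rats with high Ttr (-0.92) and without 10 wk replicate 4 alone (-0.98), and without the 5 rats 5 genes of its list were higher and 2 lower. Among vesicle release genes, members of the synaptotagmin family lay on both sides, with Syt5 (1.51), Syt10 (1.73), Syt6 (1.06), Rab3b (1.41) and Stx1a (1.11) higher in the NTS, and Syt2 (-1.34) and Cplx2 (-1.38) lower. The other 33 of the 40 release genes tested were not called, and the list median was -0.13. At an adjusted p within 0.01 and without a fold limit, 11 release genes were higher and 16 lower. Their summed level was lower in the NTS in 18 of 18 rats, at medians of 8722 and 12101 CPM. Under scaling by total counts 7 were called higher and 2 lower, with a median of 0.03.

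Genes of neurofilaments and large-caliber axons were mostly lower in the NTS. Of 20 genes in the list, 7 were called lower (Spp1, Nefh, Slc17a7, Syt2, Kcna1, Kcna2 and Scn4b) and 1, Prph, higher, and the median log2 fold change was -0.90. Under scaling by total counts 4 were lower, with a median of -0.74. Spp1, osteopontin, which many large brainstem neurons make, was at 56.9, 90.4 and 165 CPM in the NTS and 285, 491 and 683 CPM in the CVLM (-2.28). Nefh, the heavy neurofilament subunit, was at medians of 152 and 349 CPM (-1.20), and Nefm (-0.83) and Nefl (-0.65) were lower in 18 of 18 rats without reaching the fold limit. Hapln1, a link protein of perineuronal nets, was at 5.19, 11.3 and 39.6 CPM against 23.3, 56.5 and 93.7 CPM (-1.91), and of 15 genes of these nets tested 2 were lower and 1, Tnc, higher. Calb1, the calcium-binding protein calbindin, took the other direction, at 157, 217 and 448 CPM in the NTS and 18.5, 31.2 and 109 CPM in the CVLM (2.93 ± 0.12, adjusted p = 1.1e-13), and of 16 calcium-binding protein genes 3 were higher and 1 lower.

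Several genes with the largest shifts toward the CVLM lay outside the classes above. Tyrp1, known from pigment cells, was at 0, 0.316 and 2.54 CPM in the NTS and 4.52, 12.7 and 19.5 CPM in the CVLM (-4.94). Duox2, an NADPH oxidase that produces hydrogen peroxide, was at 0.270, 1.07 and 2.01 CPM against 13.6, 29.3 and 50.7 CPM (-4.66). Lamb3, a laminin chain of basement membranes, had a log2 fold change of -3.87, and Sdc1, a heparan sulfate proteoglycan, -3.68. Their RVLM medians were 0.238 CPM for Tyrp1, 0.396 CPM for Duox2, 5.79 CPM for Lamb3 and 8.83 CPM for Sdc1, each below the lowest CVLM level of the gene. Tmem72 (-3.57), Grifin (-2.49), Rab37 (-2.35) and Myom3 (-2.33) were also among the 15 lowest. On the NTS side, A2m, a protease inhibitor, was at 42.0, 63.7 and 155 CPM against 0, 7.81 and 23.1 CPM (3.13). Acsm3 (3.12) and Fibcd1 (3.39) were higher in 18 of 18 rats.

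Enzymes of retinoic acid metabolism lay on opposite sides. Aldh1a2, which makes retinoic acid and is abundant in the meninges, was at 3.80, 19.7 and 64.3 CPM in the NTS and 0.631, 1.34 and 3.95 CPM in the CVLM (3.93). The meningeal list as a whole did not follow it, with 3 of 18 tested genes higher in the NTS, a median of 0.10, and a summed level that was lower in the NTS in 15 of 18 rats. Without the 5 rats with high Ttr, 2 were higher and 1 lower, with a median of -0.05. The receptor gene Rarb was higher in the NTS (26.0, 39.3 and 50.7 CPM against 8.83, 14.0 and 19.3 CPM, 1.57), as was the carrier gene Crabp2 (1.06). Aldh1a1, the related dehydrogenase, was lower in the NTS, at 32.5, 57.2 and 91.7 CPM against 135, 169 and 256 CPM (-1.55), as were Lrat, which esterifies retinol (-2.57), and Cyp26b1, which degrades retinoic acid (-1.57). Stra6 was called higher (1.02), a call lost when any of 8 rats was left out in turn and also without the 5 rats with high Ttr. Of 30 genes of the retinoic acid and Wnt list, 7 were higher and 3 lower, with a median of 0.18. Without the 5 rats with high Ttr, 5 were higher and 3 lower, and Crabp2 (0.84) was among those no longer called.

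Motile cilia genes were higher in the NTS nearly throughout their list. Motile cilia line the ependyma of the ventricles, and their axonemal dyneins, radial spokes and tektins are switched on together by the factors RFX and FOXJ1. Of 49 ependymal and ciliary genes in the tables, 40 were tested, 35 were higher in the NTS and none was lower, and the median log2 fold change was 2.29. Dynlrb2, a dynein light chain, was at 1.82, 7.74 and 33.2 CPM in the NTS and 0.0703, 0.777 and 2.34 CPM in the CVLM (3.15). Dnah12, a dynein heavy chain, was at 4.26, 8.58 and 20.8 CPM against 0, 0.963 and 3.03 CPM (3.23), without overlap. Tekt2 (3.30), Hydin (1.86) and Tekt1 (1.11) were higher in 18 of 18 rats, as was Ccdc153, an ependymal marker (4.50). Enkur (3.36), Lrrc34 (3.42) and Rgs22 (2.88), which rank among the 15 largest differences and lie outside the list, are also known from ciliated cells. Without the 5 rats with high Ttr in the NTS, 32 members were higher and none lower, with a median of 2.03, and Tekt1 was no longer called. The summed level ran from 349 to 1088 CPM in the NTS and from 351 to 652 CPM in the CVLM, and was higher in the NTS in 16 of 18 rats.

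Promoters were available for 28 of the 35 ciliary genes that were higher, and 5 are shown because these genes moved together and share a short motif. Each is the 250 bases before the annotated start from RefSeq on GRCr8, 5′ to 3′ on the gene's strand, with capitals marking the RFX half-sites GTTGCC and GTTGCT on either strand.
Dynlrb2, chr19:61428830-61429079, plus strand: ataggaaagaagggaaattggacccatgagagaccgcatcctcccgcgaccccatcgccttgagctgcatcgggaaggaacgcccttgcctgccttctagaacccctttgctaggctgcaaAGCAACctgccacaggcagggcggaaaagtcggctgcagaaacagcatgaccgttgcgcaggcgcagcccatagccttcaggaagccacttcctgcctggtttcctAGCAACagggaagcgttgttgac
Dnah12, chr16:1944502-1944751, plus strand: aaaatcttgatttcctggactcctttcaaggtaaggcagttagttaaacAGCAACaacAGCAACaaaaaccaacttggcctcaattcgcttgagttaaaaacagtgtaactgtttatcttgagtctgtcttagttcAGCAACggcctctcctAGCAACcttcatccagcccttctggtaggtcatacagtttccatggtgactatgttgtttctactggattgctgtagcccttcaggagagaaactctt
Tekt2, chr5:143907725-143907974, minus strand: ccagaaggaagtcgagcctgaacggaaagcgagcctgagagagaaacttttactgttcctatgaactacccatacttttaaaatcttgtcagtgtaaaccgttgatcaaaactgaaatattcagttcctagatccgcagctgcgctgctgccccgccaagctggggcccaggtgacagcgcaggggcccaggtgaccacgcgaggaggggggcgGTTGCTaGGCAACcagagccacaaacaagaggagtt
Hydin, chr19:55146216-55146465, plus strand: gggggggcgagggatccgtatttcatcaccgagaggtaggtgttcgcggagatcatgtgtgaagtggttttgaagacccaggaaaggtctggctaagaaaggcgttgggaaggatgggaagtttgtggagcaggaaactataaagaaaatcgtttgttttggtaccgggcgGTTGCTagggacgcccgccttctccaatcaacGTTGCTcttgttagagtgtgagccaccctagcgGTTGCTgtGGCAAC
Tekt1, chr10:57479122-57479371, minus strand: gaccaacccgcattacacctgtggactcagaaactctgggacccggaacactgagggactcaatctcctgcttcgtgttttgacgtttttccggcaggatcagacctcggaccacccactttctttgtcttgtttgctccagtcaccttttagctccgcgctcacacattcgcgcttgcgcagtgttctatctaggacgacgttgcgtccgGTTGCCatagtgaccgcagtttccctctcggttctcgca
A half-site was present in 18 of these 28 promoters (64.3%), in 21 of the 32 ciliary genes tested (65.6%), in 4 of 30 neuropeptide genes (13.3%), in 1 of 21 oligodendrocyte genes (4.76%), and in 21.1% of the promoters of tested genes. The motif was chosen after the expression values were seen. These shares describe letters in a window and are no evidence of binding.

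Choroid plexus genes were high in the NTS libraries of some rats. Ttr was at 0.270, 1.28 and 4362 CPM in the NTS and 0, 0.177 and 195 CPM in the CVLM. The 5 NTS libraries named above held 226.99, 1775, 86.4, 4362 and 766 CPM, and the others at most 6.03 CPM. Across all rats Ttr (4.23), Folr1 (4.28), Kcnj13 (3.53) and 4 other genes of 14 tested were higher in the NTS. Without the 5 rats 3 were higher and 2 lower, and Kcnj13 was no longer called. Leaving these rats out gave 557 genes higher and 180 lower over all genes. Tmem72, which the list also holds, was lower in the NTS (-3.57). The summed level of the choroid plexus list was lower in the NTS in 14 rats and higher in 4. Its medians were 247 CPM in the NTS and 377 CPM in the CVLM. Genes of the neighboring area postrema were mixed, with Gfral, Ramp3, Agtr1a and Calcr higher and Plvap, the diaphragm protein of fenestrated capillaries, lower (-1.14), at 7.46, 9.94 and 15.3 CPM in the NTS and 16.1, 19.8 and 34.4 CPM in the CVLM.

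**Figure D2:**
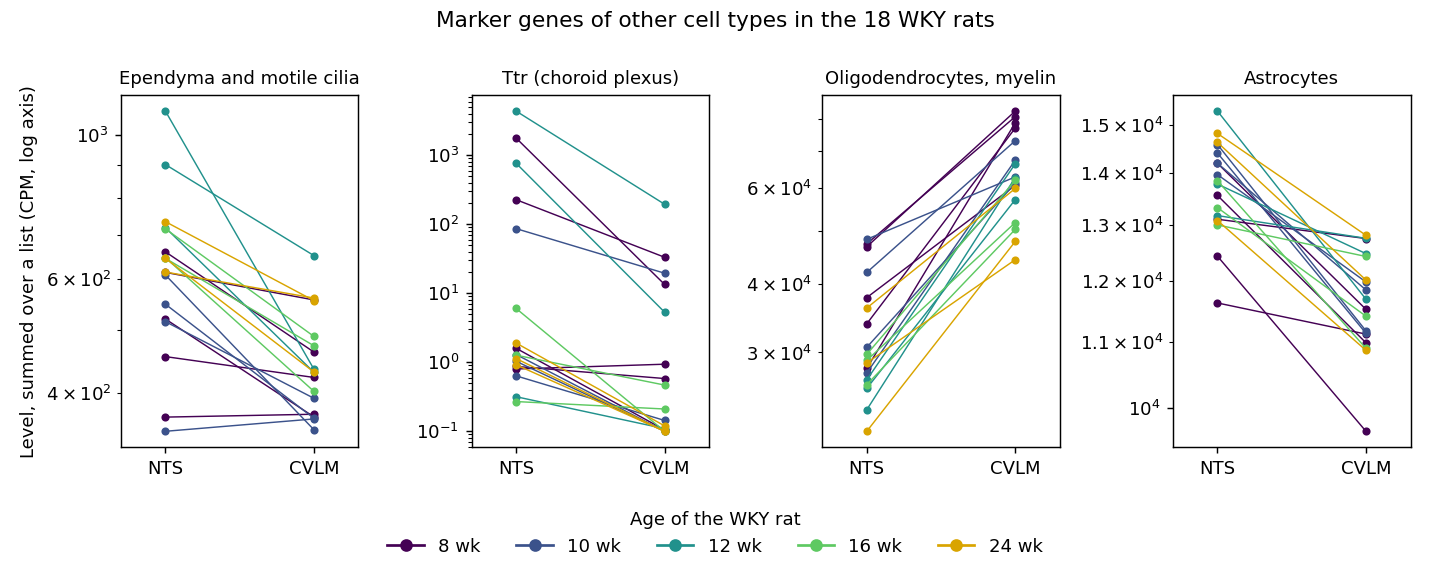
Marker genes of ependyma, choroid plexus, oligodendrocytes and astrocytes in the NTS and CVLM of the same WKY rats (y axis, CPM on a log scale, summed over each list except for Ttr, where values under 0.1 are drawn at 0.1). Each line joins the 2 libraries of 1 rat. Summed oligodendrocyte genes are lower in the NTS and summed astrocyte genes higher in 18 of 18 rats, and 5 NTS libraries hold Ttr above 50 CPM.

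Oligodendrocyte and myelin genes were lower in the NTS as a group, by somewhat less than the fold limit. All 29 members in the tables were tested, 6 were called lower and none higher, and 27 were lower at an adjusted p within 0.01 with no fold limit, with a median log2 fold change of -0.88. Their summed level was 21527, 29389 and 48310 CPM in the NTS and 44338, 62287 and 82883 CPM in the CVLM, and was lower in the NTS in 18 of 18 rats. Mbp, myelin basic protein, was at 10759, 15149 and 22420 CPM against 25103, 33904 and 45356 CPM (-1.10 ± 0.07, adjusted p = 3.2e-12). Gjb1, a connexin of myelin, and Klk6 had values of -1.14 and -1.11, and Mog of -0.88. Scaling by total counts moved the median of all genes by 0.16 toward the NTS, and under it 1 of the 29 members was called lower with a list median of -0.72. Without the 5 rats with high Ttr, 2 were called and the median was -0.78, with Mbp at -0.99 and Klk6 at -0.98, short of the fold limit. None of the 6 genes called lower across all 18 WKY rats was also called lower in the SHRs. Oligodendrocyte precursor genes had a median of -0.07 and none of 9 called.

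In the astrocyte, microglial, endothelial and pericyte lists, 4%, 0%, 5.26% and 7.14% of the tested genes were called, against 5.92% of all tested genes. Without the fold limit, 40.9% of all tested genes had an adjusted p within 0.01. Of 25 astrocyte genes 1 was called higher (median 0.36), and without the fold limit 15 were higher and 3 lower. The summed astrocyte level was higher in the NTS in 18 of 18 rats. Aqp4, the astrocytic water channel, had a log2 fold change of 0.44 and Gfap 0.46. None of 22 microglial genes was called (median 0.30), although 4 were under scaling by total counts. Without the fold limit 12 microglial genes were higher and none lower, and their summed level was higher in 17 of 18 rats. Of 19 endothelial genes 1 was called lower (median -0.38), and of 14 pericyte and smooth muscle genes 1 was called lower (median -0.36). Without the fold limit 13 endothelial genes were lower and none higher, and 8 pericyte and smooth muscle genes were lower and 1 higher. The summed level of each of these vascular lists was lower in the NTS in 18 of 18 rats. None of 35 complex I genes of the respiratory chain was called (median -0.35), but 27 were lower in the NTS at an adjusted p within 0.01 with no fold limit, and their summed level was lower in 17 of 18 rats. None of 5 blood cell genes, 14 immediate early genes and 49 cytosolic ribosome genes was called, with medians of -0.25, -0.05 and -0.07, and 1 of 13 glucocorticoid response genes, Mt1, was higher (median -0.01). Among 63 axon guidance and adhesion genes 9 were higher and none lower (median 0.27), and among 15 genes listed for cerebellar neurons 3 were higher and 2 lower (median 0.12).

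**Figure D3:**
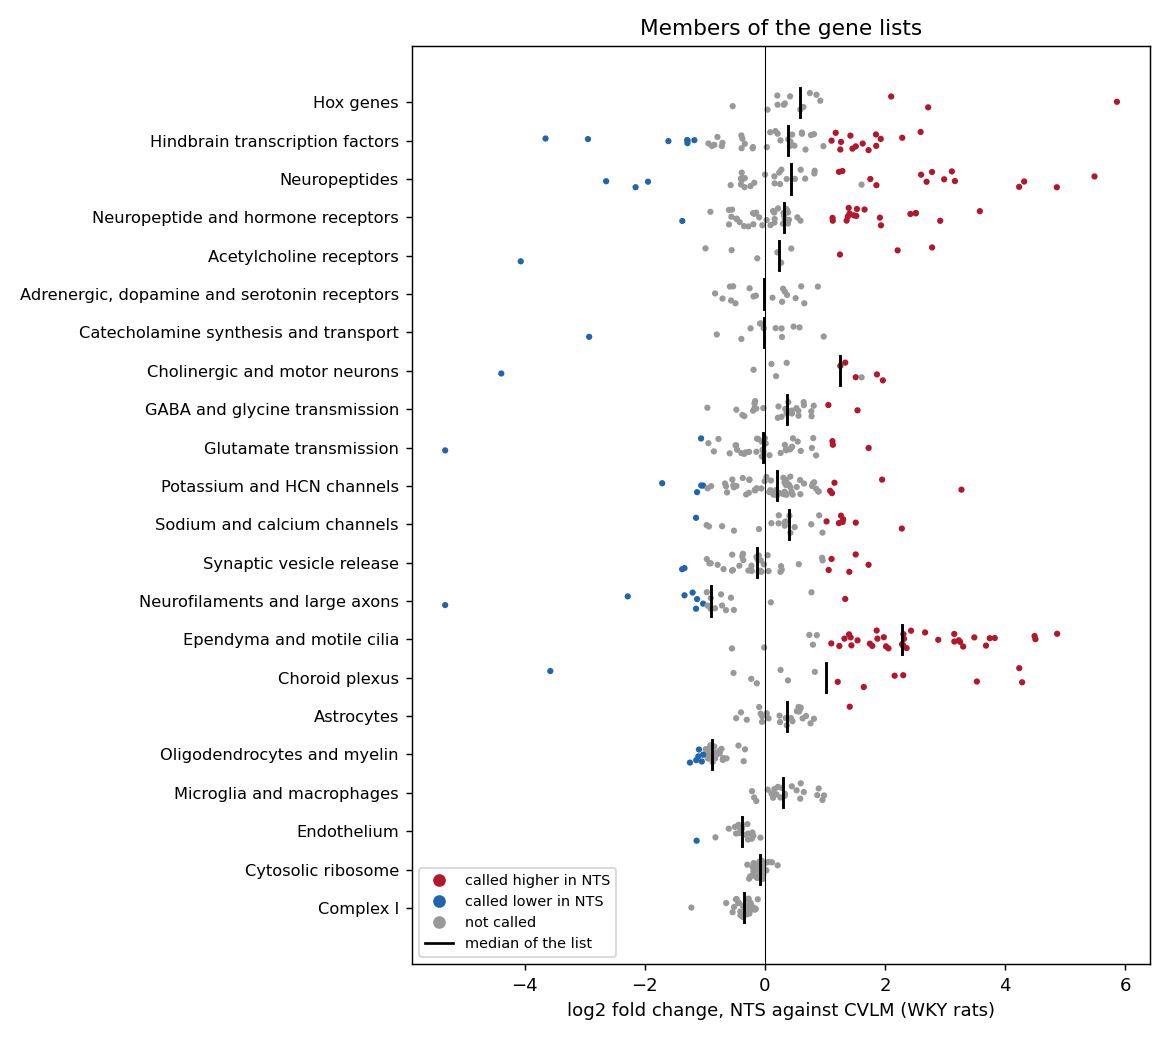
Log2 fold change of NTS against CVLM (x axis) for each tested member of 22 gene lists (rows). Points are genes, colored by whether they were called, and bars are list medians. The ciliary list has its median at 2.29 and the oligodendrocyte list at -0.88. The ribosomal and complex I lists are among those with no called gene. Of the 35 complex I genes, 27 were lower at an adjusted p within 0.01 with no fold limit.

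Whether the region difference varied with age was tested with 5 ages in 1 model. No gene passed an adjusted p of 0.05 in edgeR (0% of 13718, lowest adjusted p = 0.49), with 845 genes at an unadjusted p under 0.05. DESeq2 called 25 genes, and edgeR called 49 when 24 wk replicate 2 was left out and 1 when replicate 3 or replicate 4 at 8 wk was left out. There were 3 genes common to the DESeq2 calls and the 49, namely Acly, Medag and Stard10. Among the 6 genes with the smallest p, Acly, the enzyme supplying cytosolic acetyl-CoA for lipid synthesis, had log2 fold changes of -0.15, -0.22, 0.36, 0.24 and 0.76 in ascending order of age, and Aacs, which feeds acetoacetate into sterol synthesis, -0.52, -0.21, -0.25, -0.02 and 0.23. Mx2, an interferon-induced GTPase, had 0.20, 0.76, 0.34, 0.53 and 0.92. Medag (-0.98, -0.78, -2.88, -2.28 and -1.66), Rnf112 (-0.20, -0.19, 0.44, 0.50 and 0.55) and Stk26 (-0.74, -0.26, 0.13, 0.34 and -0.06) were the others. Since all 4 rats at 10 wk and none from 12 wk on have sample names ending in 2, age and that number cannot be told apart for 10 wk against the later ages.

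**Figure D4:**
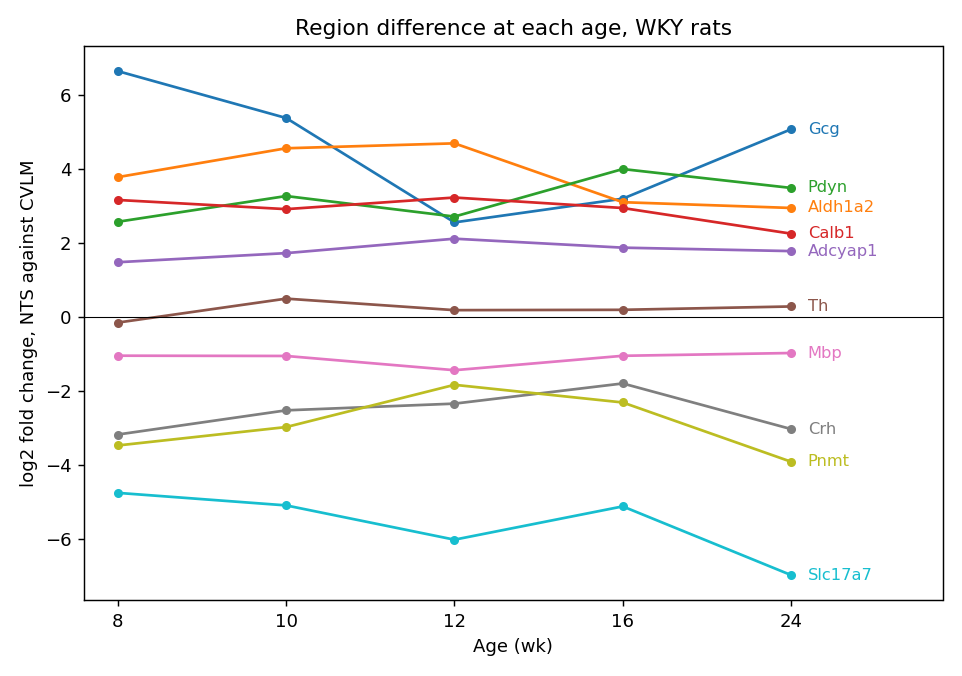
Log2 fold change of NTS against CVLM (y axis) at each age (x axis, wk, evenly spaced) for 10 genes, from the model with a region difference per age. Points are estimates from 5, 4, 3, 3 and 3 rats. Each gene except Th stays on 1 side of 0, and no gene passed the test for a difference between ages in edgeR.

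The SHRs provided the same comparison in other rats. There, 452 genes (3.32% of 13634 tested) were higher in the NTS and 156 (1.14%) lower. Of the 610 genes higher in WKY rats, 415 were also called higher in SHRs, which is 68.0% of the WKY list and 91.8% of the SHR list. Of the 202 lower, 121 were called lower, 59.9% and 77.6% of the lists. These shares count every WKY call, but 542 of the 610 and 188 of the 202 were tested in SHRs. The others could not be called there. Igfbp5 alone was called in opposite directions. The share of WKY calls also made in SHRs differed between lists. Of the 35 ciliary genes called higher in WKY rats, 28 were called higher in SHRs, and of the 7 choroid plexus genes 1 was. Of the 6 oligodendrocyte genes called lower in WKY rats, 0 were called lower in SHRs. Tested directly, the region difference differed between strains for 60 of 13768 genes (0.436%), 40 more toward the NTS in WKY rats and 20 less. This test did not let the region difference vary with age, and the strains differed in their number of rats per age. Igfbp5, an insulin-like growth factor binding protein, had a log2 fold change of 1.04 in WKY rats and -1.47 in SHRs, a difference of 2.54 (adjusted p = 4.8e-06). Its levels in WKY rats were 12.5, 51.0 and 168 CPM in the NTS and 12.8, 22.9 and 43.8 CPM in the CVLM. The WKY call alone was lost when any of 13 rats was left out in turn and also without the 5 rats with high Ttr.

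Peptide receptor genes were among those that differed between strains. Npy4r had values of 3.58 in WKY rats and 1.74 in SHRs (difference 1.83, adjusted p = 0.0016), Tacr3 of 2.51 and 1.62 (0.90, adjusted p = 0.029), and Npy2r, a presynaptic receptor of neuropeptide Y, of 0.16 and -0.66 (0.84, adjusted p = 0.0024). In the other direction, Cfap206, a ciliary gene, had 1.88 in WKY rats and 4.23 in SHRs (difference -2.31, adjusted p = 9.7e-09), Aldh1a1 -1.55 and -0.69 (-0.85, adjusted p = 9.0e-09), Grifin -2.49 and -1.51 (-0.99), Nmb, neuromedin B, -0.33 and 0.63 (-0.95) and Tmem255b -0.10 and 0.81 (-0.90). The difference for Ttr (4.19) had an adjusted p of 0.037, or 0.070 without 12 wk replicate 2. Without the 5 WKY rats with high Ttr, 31 genes passed, 29 of them shared with the 60, and Npy2r, Tacr3, Grifin and Ttr no longer passed (adjusted p = 0.064, 0.27, 0.093 and 0.69).

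**Figure D5:**
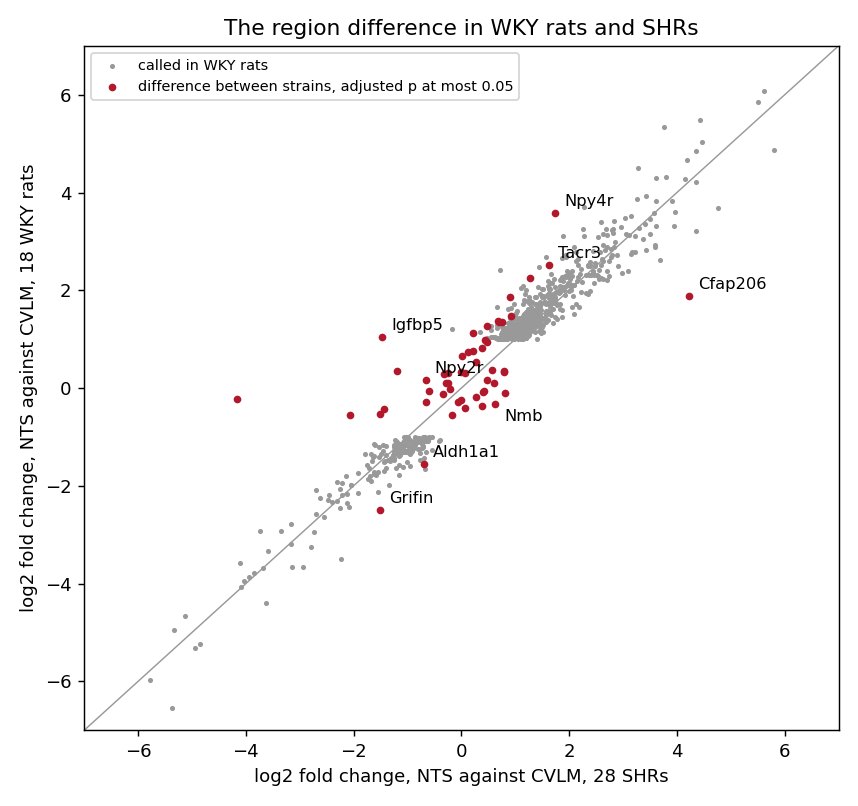
Log2 fold change of NTS against CVLM in 18 WKY rats (y axis) against 28 SHRs (x axis). Gray points are 730 genes called in WKY rats and tested in SHRs, red points are 52 genes past the test for a difference between strains, and the line marks equal values. Igfbp5 lies on opposite sides of 0 in the strains, and Npy4r and Cfap206 lie far from the line on opposite sides of it.

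Levels in the RVLM of the same rats are set beside those of the NTS and CVLM for orientation, without a count of calls since these comparisons share libraries. The RVLM levels came from a TMM scaling of all regions, the others from a scaling of the NTS and CVLM alone. Median levels of Chat were 69.4 CPM in the NTS, 18.8 CPM in the CVLM and 237 CPM in the RVLM, and those of Isl1 were 5.32, 1.90 and 42.2 CPM. For Th they were 147, 143 and 41.3 CPM, for Dbh 78.5, 87.3 and 7.56 CPM, and for Pnmt 5.87, 45.2 and 13 CPM. The highest median of Pnmt was in the CVLM and the lowest of Th and Dbh in the RVLM. Slc17a7 was at 5.21, 190 and 4.45 CPM and Crh at 2.96, 18.8 and 1.48 CPM, each with its highest median in the CVLM. Pdyn, at 90.6, 10.2 and 5.46 CPM, Calb1, at 217, 31.2 and 5.19 CPM, and Adcyap1, at 166, 47.3 and 13.6 CPM, each had their highest median in the NTS and their lowest in the RVLM. Mbp, at 15149, 33904 and 26524 CPM, and Nefh, at 152, 349 and 1411 CPM, were lowest in the NTS.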

How the data were processed

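RNA-seq libraries of tissue punches from the NTS and CVLM of 18 WKY rats were analysed, with those of 28 SHRs and the WKY RVLM beside them. The authors mapped reads to rn6 with STAR inside RSEM and deposited expected counts per gene for each library, without normalization. ComBat_seq is named in their methods, and whether it was applied to the deposited counts is not stated (4.98% of NTS values and 4.91% of CVLM values are not whole). Library totals are given with the results and set the precision together with the number of rats.

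Expected counts were rounded here and groups were taken from the sample labels. The labels of 1 WKY and 1 SHR library of the CVLM disagree on age, and an alternative left those rats out. Genes were kept when the largest rlog value reached 3.5. Counts were TMM-scaled and fitted in edgeR 4.0.16 (R 4.3.3, robust quasi-likelihood test, Benjamini-Hochberg adjustment over all tested genes) with each rat as a block. The pairing comes from the animal number. After removing age means, the NTS and CVLM libraries of a rat correlated at -0.24 to 0.71 (median 0.26, 14 of 18 rats over 0.1), against a median of -0.08 for different rats of an age. Differences between ages and strains were interaction terms, passed at an adjusted p of 0.05. DESeq2 1.42.0, limma 3.58.1 and other scalings, filters and sets of rats were alternatives. WKY NTS and CVLM libraries were compared in 50 pairs of the same region and age. The lowest chi-square per gene was 7.49, so no library was a repeat of another in its group. Pairs across groups were not compared. Scripts were tested on simulated data.

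Named genes were the 15 highest and 15 lowest log2 fold changes among called genes with a symbol, a mean count of at least 50 and 1 direction in all 18 rats, then members of the lists described, 6 genes by age, 4 per direction by strain, and genes the study discusses for these regions. The comparison, the 35 lists and the members were chosen with earlier results of these data known. Listed genes without a row in the tables were not analysed here. Genes with close paralogs and overlapping genes share reads that RSEM divides by estimate. Promoters were matched by symbol to RefSeq on GRCr8. Some genes that the rule names are not reported here.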

Additional observations from a re-analysis of the deposited data

Results flagged for a closer look

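Within the 8 wk group (5 rats) and the 10 wk group (4 rats), 1 rat's log2 ratio of NTS to CVLM (with 0.5 CPM added) stood apart from the others by Dixon's criterion in 21 of 322 combinations of a named gene and an age, where chance gives about 1 in 20. The 10 wk replicate 4 accounted for Tph2 (-1.77, the others 2.14 to 2.44), Slc6a4 (-5.95, the others -0.47 to 0.28), Dbh (1.56), Syt10 (3.09), Cacng5 (3.71) and Cacnb3 (1.62). Its CVLM library held Tph2 at 123 CPM, Slc6a4 at 30.4 CPM and Pnmt at 12.1 CPM, the highest, highest and lowest of 18. The values of the remaining rats that stood apart at 10 wk were -2.35 for Lamb3, -0.69 for Stk26, 2.41 for Nr2f2, -1.50 for Foxp2 and 2.63 for Folr1. At 8 wk they were -3.10 for Tyrp1, -4.03 for Pnmt, -3.45 for Lrat, -0.82 for Rnf112, 4.02 for Prlh, 2.34 for Chrna3, -2.57 for Foxp2, 1.62 for Syt5, 2.47 for Syt10 and 1.66 for Rab3b.

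The NTS-CVLM difference of WKY rats minus that of SHRs passed the test of the difference itself for 11 named genes. The values on the log2 scale were 2.54 for Igfbp5, 4.19 for Ttr, 2.80 for Kcnj13, 1.83 for Npy4r, 0.90 for Tacr3, 0.84 for Npy2r, -2.31 for Cfap206, -0.99 for Grifin, -0.95 for Nmb, -0.90 for Tmem255b and -0.85 for Aldh1a1. Without the 5 WKY rats with Ttr over 50 CPM in the NTS, the value for Kcnj13 was 0.21 (adjusted p = 0.99).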

How the results depend on the processing

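Of 139 called genes among the 161 named, 96 kept the call under each of the 29 alternatives in which they were tested, and none changed sign. The edgeR filter filterByExpr kept 153 of the 161, so the 96 may include genes not tested under it. A fold limit of 4 left 203 genes higher and 45 lower in the NTS (248), 151 of them shared with SHRs. An adjusted p of 0.05 with no fold limit gave 3534 and 3696 (7230), 6263 shared. Without a filter 307 genes were lower and 846 were shared with SHRs. Leaving out 1 rat at a time gave 573 to 622 genes higher and 191 to 217 lower (764 to 831 in all), 529 to 537 shared with SHRs, and 544 of the 610 and 173 of the 202 were called in all 18 of these fits. Without the replicate block 604 and 194 genes were called, and 38 in place of 60 differed between strains. The block changed no count of calls by over 1.5 times other than this. For strains, DESeq2 gave 91, leaving out 1 rat 49 to 73 (12 of the 18 rats, the others not run), and leaving out the 5 rats with high Ttr, an alternative chosen after seeing the data like the split by sample name, 31. For ages, DESeq2 gave 25 and leaving out 1 rat 0 to 49. Rats with names ending in 1 gave 602 higher and 239 lower, those ending in 2, all of 8 or 10 wk, 513 and 151. Scaling by total counts gave 787 higher and 145 lower. Genes with medians under about 1 CPM rest on few reads, and their fold changes depend on the prior count.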
